A study of Homo sapiens with 2 samples.

Results

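The genes described here are 28 genes of cholesterol synthesis and of the SREBP2 pathway that controls it, measured in radiation-adapted and in wild-type A4573 cells. A4573 is an established line of Ewing sarcoma, a cancer of bone and soft tissue in which a chimeric transcription factor, usually EWSR1-FLI1, drives growth. The radiation-adapted culture carries the label 4 Gy, with no schedule of irradiation or interval before harvest in the labels, and the wild-type culture carries no irradiation in its labels. Total RNA of each was hybridised to 1 Illumina bead array, so there was 1 array per group. The labels do not say how the adapted line was selected, whether it was derived from the wild-type culture hybridised here, or whether it descends from 1 clone or from a mixed culture. Probes were matched to the members by the gene symbol of the platform annotation, and the list of members itself was drawn up with earlier results of these data known. They account for 37 of the 47323 probes on each array. Of the 28 genes, 27 had a named probe, and 26 were detected (detection p of at most 0.01) in at least 1 array, out of 11296 such genes among 20046 named in all. The squalene synthase gene FDFT1 had no named probe. STARD4, which encodes a cytosolic sterol carrier, was not well above background in either array, with intensities of 132 in adapted and 117 in wild-type cells.

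Cholesterol is built from acetyl-CoA through mevalonate and the isoprenoid pyrophosphates to squalene, which is closed to lanosterol and then trimmed to cholesterol. The isoprenoids also feed protein prenylation, ubiquinone and dolichol. When sterols in the endoplasmic reticulum are low, SCAP escorts the membrane-bound factor SREBP2 to the Golgi. The site-1 and site-2 proteases release its active part there, which enters the nucleus and turns on the enzymes of the pathway. When sterols are high, the INSIG proteins hold SCAP and SREBP2 back.

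Depth was similar in the arrays, with 35.3% of probes detected in the adapted and 37.8% in the wild-type array and median intensities of 140.2 and 139, in that order. All 5 Ewing sarcoma markers looked at (CD99, FLI1, NKX2-2, STEAP1 and LIPI) were detected in both arrays. Of 5 leukocyte markers, PTPRC and CD3E were not detected in either array, and CD14, CD68 and LCP1 were detected in both. The 7 fibroblast markers were all detected in both, and 3 of them were at least 1.5-fold higher and 3 at least 1.5-fold lower in adapted cells. Of 4 hepatocyte and adipocyte markers, ALB was detected in both arrays at a like level (-0.02) and APOA1, ADIPOQ and PLIN1 in neither. Of 4 proliferation genes, MKI67 (1.72), CCNB1 (1.83) and TOP2A (1.22) were at least 1.5-fold higher in adapted cells and PCNA read 0.43, as log2 differences. A further PCNA probe had the other sign. MKI67 was close to the background in wild-type cells (intensity 153). Without background correction MKI67 read 0.69, CCNB1 1.37 and TOP2A 1.15. The part of these proliferation genes in the results below was not tested.

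Differences are log2 normalised intensity in adapted cells minus that in wild-type cells, and a member was counted when it was at least 1.5-fold apart (0.58 on the log2 scale). With 1 array per group there is no replicate check, and no p-value or error between cultures is given. A technical yardstick comes from genes with several probes: in 2326 genes that had 2 or more probes detected on each array, the differences of the 2 brightest probes scattered with an SD of 0.28 per probe. That SD was 0.17 where the dimmer probe lay above 10 on the log2 scale and 0.32 where it lay under 6. It leaves out the spread between cultures and between RNA preparations.

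Of the 7 enzymes of the early, mevalonate arm, 4 were at least 1.5-fold higher in the radiation-adapted cells, with MVK among them only as a bound that was under 1.5-fold without background correction. The site-1 protease gene and APOE were lower. Of the 26 members detected, 8 (30.8%) were at least 1.5-fold higher and 3 (11.5%) at least 1.5-fold lower. Over all 11296 genes detected, 11.8% were at least 1.5-fold higher and 12.3% at least 1.5-fold lower. The 8 higher members were ACAT2, HMGCS1, MVK, IDI1, CYP51A1, MSMO1, SREBF2 and INSIG1, and the 3 lower ones HSD17B7, MBTPS1 and APOE. The median difference of the members was 0.34, or 1.27-fold, against 0.01 over all genes, and 19 of the 26 lay above 0. At least 2-fold differences were reached by ACAT2 and IDI1 upwards (background 2.76%) and by MBTPS1 and APOE downwards (background 4.43%). By brightness, 16 members had a mean log2 level of 8 to 10, and of these 3 were higher, where 11.6% of all genes of that level were. Of the dimmer members, 3 of 5 at a level of 6 to 8 were higher (15.0% of all genes there) and 2 of 3 under 6 (9.61%), so that 5 of the 8 higher members lay among the dimmer genes. Neither of the 2 members over 10 was higher (7.58%). In bulk RNA, fewer cells expressing a gene and less of its RNA per cell cannot be told apart.

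**Figure D1:**
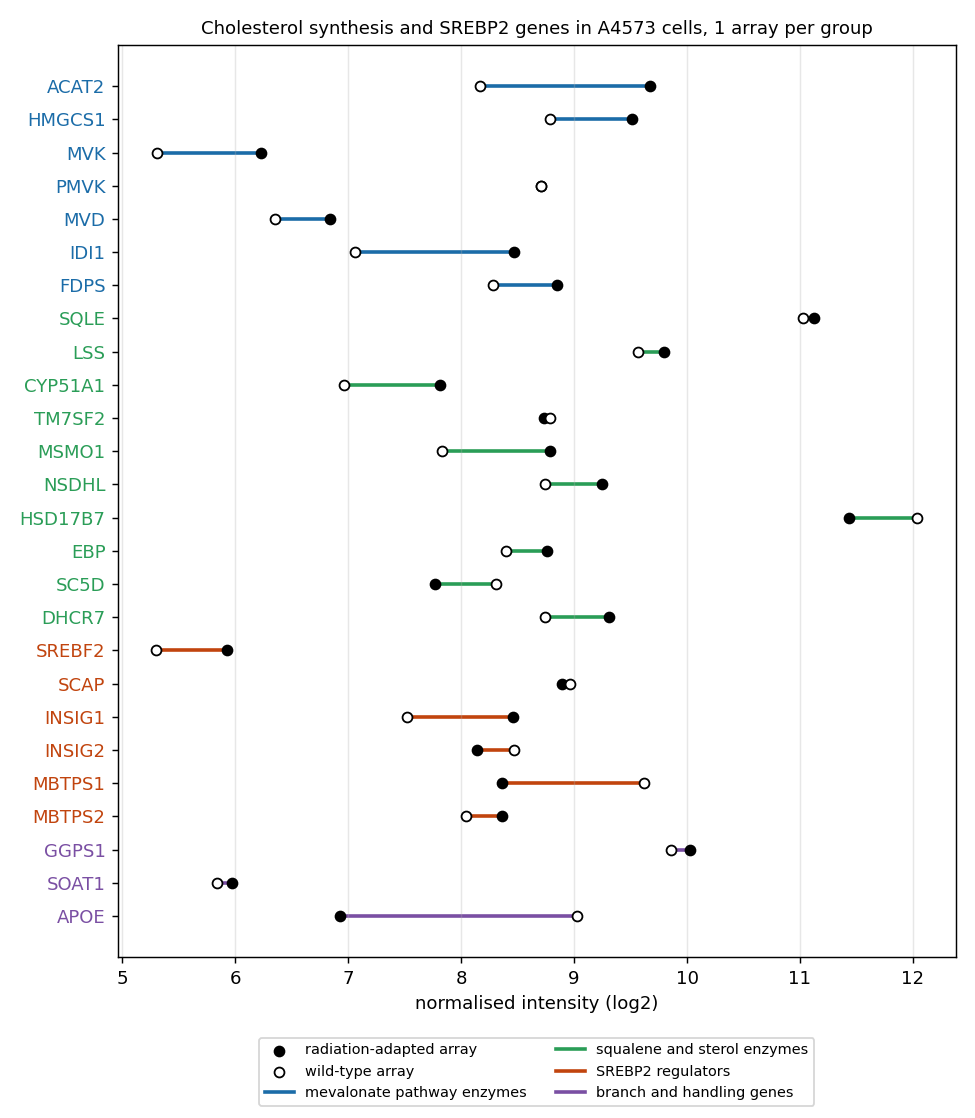
Normalised intensity (log2, x axis) of the 26 detected members in the radiation-adapted array (filled points) and the wild-type array (open points), joined by a line coloured by role. All 7 mevalonate pathway genes lie at or above their wild-type value, with PMVK at the same level in both arrays, and APOE and MBTPS1 have the longest lines in the other direction.

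**Figure D2:**
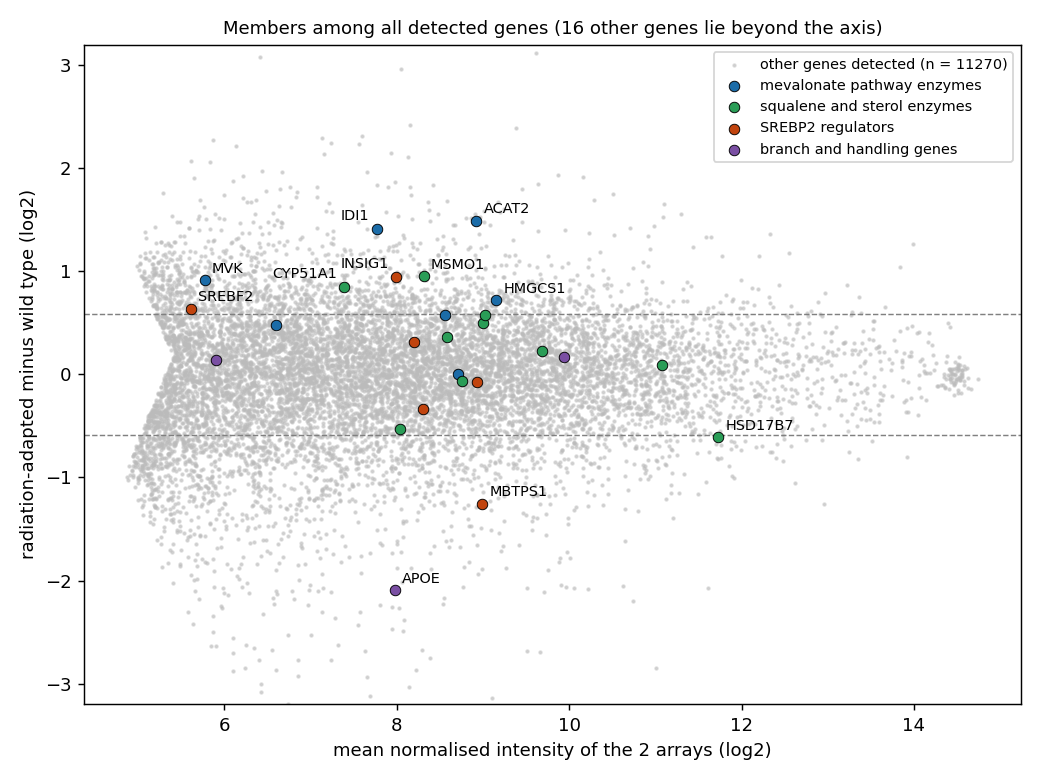
Difference between the arrays (log2, adapted minus wild type, y axis) against the mean normalised intensity (log2, x axis) for all detected genes, with the members coloured by role and the 1.5-fold limits dashed. ACAT2 (1.49) and IDI1 (1.41) lie well above the upper dashed line among the 11270 other genes, and MBTPS1 (-1.25) and APOE (-2.09) below the lower one.

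RefSeq promoter windows (250 bases before to 50 after a gene start, GRCh38.p14) were found for 25 of the 28 members, 35 windows in all. Some windows of a gene overlap and so share sequence. The sterol regulatory element core TCACNCCAC, searched on both strands, was in 1 member window, that of SREBF2, and in 1.13% of all windows. The looser TCACNCCA, which lies within the longer motif and was added after the data were seen, was in the windows of MVK, MSMO1 and SREBF2, or 8.6% of member windows against 3.95% of all. All 3 belong to the 8 members that were higher in adapted cells, 7 of which had a window, and each of the 3 was under 1.5-fold in at least 1 of the 7 processing alternatives. HMGCS1, IDI1 and INSIG1, which stayed past 1.5-fold in each alternative, had windows without the motif. The CCAAT box, bound by NF-Y, a cofactor of the SREBPs, was in 22 of the 35 member windows (62.9%), against 34.6% of all windows and 35.3% of those of detected genes. By gene it was found in 6 of the 7 higher members with a window, 2 of the 3 lower ones and 10 of the 14 others. These counts take a match in any window of a gene. No share by gene was computed over all genes, so the window shares are not their background. The GC box GGGCGG, bound by Sp1, was in 80.0% of member windows and 65.1% of those of detected genes. These matches describe letters in the windows and no binding was measured. The 250 bases before the start of the 3 genes with the looser motif TCACNCCA are shown, with that motif and each CCAAT or its reverse complement ATTGG in capitals. All 3 lie on the plus strand, MVK at chr12:109573544-109573793, MSMO1 at chr4:165327419-165327668 and SREBF2 at chr22:41832855-41833104.
MVK: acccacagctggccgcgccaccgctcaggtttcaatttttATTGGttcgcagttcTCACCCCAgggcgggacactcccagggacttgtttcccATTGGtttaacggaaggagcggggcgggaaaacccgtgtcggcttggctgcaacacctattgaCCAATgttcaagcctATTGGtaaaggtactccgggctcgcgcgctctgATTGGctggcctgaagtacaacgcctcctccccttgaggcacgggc
MSMO1: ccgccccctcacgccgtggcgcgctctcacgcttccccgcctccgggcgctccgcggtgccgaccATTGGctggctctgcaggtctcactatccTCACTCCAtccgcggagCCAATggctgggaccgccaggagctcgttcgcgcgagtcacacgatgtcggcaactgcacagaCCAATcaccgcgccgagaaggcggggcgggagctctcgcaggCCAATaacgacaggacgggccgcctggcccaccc
SREBF2: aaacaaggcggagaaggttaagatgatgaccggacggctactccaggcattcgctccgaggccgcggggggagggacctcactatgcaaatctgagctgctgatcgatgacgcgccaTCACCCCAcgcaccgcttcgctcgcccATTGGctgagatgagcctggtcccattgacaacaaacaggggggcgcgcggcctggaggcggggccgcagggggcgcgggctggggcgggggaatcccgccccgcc
MVK and MSMO1 hold 5 and 4 CCAAT boxes in these bases, and SREBF2 holds 1.

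Among the enzymes that lead to farnesyl pyrophosphate, 4 of 7 passed 1.5-fold upwards and 0 downwards, against 11.8% and 12.3% of all genes, and the median difference was 0.72. ACAT2, the cytosolic thiolase that joins acetyl-CoA units, had an intensity of 998 in adapted cells, against 381 in wild-type cells. Its normalised log2 value was 9.67 in adapted cells against 8.17 in wild-type cells, a difference of 1.49 or 2.81-fold (2.31-fold without background correction). Only 0.8% of detected genes had a larger positive difference. A further ACAT2 probe was dim, with 159 in adapted and 125 in wild-type cells, where it was not detected, so no difference is read from it.

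HMGCS1, the synthase that makes hydroxymethylglutaryl-CoA, had an intensity of 904 in adapted cells, against 521 in wild-type cells. The difference was 0.72, or 1.65-fold (1.52-fold without background correction). Mevalonate kinase, MVK, was dim, with 189 in adapted cells against 152 in wild-type cells, where its detection p of 0.0104 was just over the limit. The MVK difference is therefore a bound, at least 1.88-fold higher, which came to 1.23-fold without background correction and 2.55-fold in the authors' processed values. It was under 1.5-fold with an offset of 50 as well (0.56).

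Phosphomevalonate kinase, PMVK, was level between the arrays, with normalised log2 values of 8.71 in each (difference 0.00) and intensities of 565 in adapted and 500.2 in wild-type cells. Mevalonate diphosphate decarboxylase, MVD, read 231 in adapted and 193 in wild-type cells, a difference of 0.48, under 1.5-fold. The isomerase IDI1, which interconverts the isoprenoid pyrophosphates, had 497 in adapted cells, against 241 in wild-type cells. At 1.41, or 2.67-fold (1.90-fold without background correction), it followed ACAT2 among the members, and 1.0% of detected genes had a larger positive difference. Farnesyl pyrophosphate synthase, FDPS, stood at 609.7 in adapted and 399 in wild-type cells, a difference of 0.57 that lay just under 1.5-fold. Of this arm, PMVK alone lay under 0.4 on the log2 scale.

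From squalene to cholesterol 2 of the 10 measured enzymes passed 1.5-fold upwards and 1 downwards, and the median was 0.30. With 11.8% of all genes past it upwards and 12.3% downwards, these counts lay near the background. Squalene epoxidase, SQLE, an oxygen-requiring step of known rate control, had 2533 in adapted and 2022 in wild-type cells, a normalised difference of 0.09. Its other probe read 0.22. Lanosterol synthase, LSS, which closes the ring, had 1085 in adapted and 808 in wild-type cells on its brightest probe, a difference of 0.23. A pair of dimmer LSS probes was detected only in wild-type cells, with 150.1 and 129 in adapted cells against 162 and 156 in wild-type cells, and no difference is read from values at background.

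The lanosterol demethylase CYP51A1, a cytochrome P450, had 352 in adapted cells, against 233 in wild-type cells. It was 0.85 higher, or 1.81-fold, and 1.42-fold without background correction. MSMO1, the oxidase that removes methyl groups from the sterol ring, had 588 in adapted cells, against 327 in wild-type cells, a difference of 0.95 or 1.94-fold. The probes of MSMO1 did not move together: the other 2, both dimmer, read 0.23 and -0.33, and the mean over probes was 0.28. NSDHL, which acts with MSMO1 in the same demethylation, had 766 in adapted and 508 in wild-type cells (0.50), under 1.5-fold.

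HSD17B7, the ketosteroid reductase of that step, was lower in adapted cells, with 3116 in adapted cells against 3930 in wild-type cells. Its difference of -0.61, or 1.52-fold lower, was under 1.5-fold with median scaling (-0.52) and in the authors' processed values (-0.54). The nearly identical pseudogene HSD17B7P2 has a probe of its own, not detected in either array (157 in adapted, 129 in wild-type cells). Probe sequences were not used here, so whether the HSD17B7 probe also reads that copy was not tested and its value is uncertain.

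The remaining enzymes of this arm stayed under 1.5-fold. TM7SF2, the sterol reductase that acts after CYP51A1, was at 568 in adapted and 521 in wild-type cells (-0.06), and the sterol isomerase EBP at 580.0 and 421, in that order (0.37). The desaturase SC5D was dimmer in adapted cells, with 345 against 405 in wild-type cells (-0.53). DHCR7, the reductase that ends one branch of the pathway, had 799.8 in adapted and 507 in wild-type cells, a difference of 0.57, and 0.19 on its other probe.

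The regulators of SREBP2 differed in direction among themselves, with 2 of 6 at least 1.5-fold higher and 1 lower, against 11.8% and 12.3% of all genes. With SREBF2 under 1.5-fold in 3 of the 7 alternatives, 1 of 6 was higher there. INSIG1, the retention protein whose own gene is a classical SREBP target, had 494 in adapted cells, against 287 in wild-type cells. It was 0.94 higher, or 1.92-fold (1.57-fold without background correction), and 4.3% of detected genes had a larger positive difference. Its paralogue INSIG2, which is known for lower dependence on SREBP, had 414 in adapted and 439 in wild-type cells, a difference of -0.33 (under 1.5-fold). SREBF2, the gene of SREBP2 itself, was dim, with 175 in adapted cells against 151 in wild-type cells, where the detection p was 0.0104. Its bound of at least 1.53-fold higher lay close to the limit. It was under 1.5-fold without background correction (1.14-fold), with an offset of 50 and with median scaling. The escort SCAP had 623 in adapted and 575 in wild-type cells, a difference of -0.08.

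MBTPS1, which encodes the site-1 protease that makes the first cut in SREBP2, was lower in adapted cells. Its brightest probe had 469.9 in adapted cells, against 831 in wild-type cells, and its other probe 210.3 against 292, in the same order. The differences were -1.25, or 2.38-fold lower, and -1.0, and the brighter probe still gave -1.02 without background correction. Of all detected genes, 3.3% lay further below 0. MBTPS2, which encodes the site-2 protease, had 468 in adapted and 359.6 in wild-type cells on a probe annotated to a transcript outside RefSeq (0.31), and its RefSeq probe was not detected in either array.

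Of the 3 measured members that use or handle the products (GGPS1, SOAT1 and APOE), only APOE was past 1.5-fold. Apolipoprotein E, a lipid carrier that cells secrete with cholesterol, had 239 in adapted cells, against 595 in wild-type cells. That is a difference of -2.09, or 4.27-fold lower (-1.43 without background correction), the largest of any member, with 0.7% of detected genes further below 0. Macrophages also make APOE, and among leukocyte markers LCP1 was lower too (-2.49), while CD68 read -0.35 and CD14 -0.21. The part of other cells in the APOE difference was not tested, and the pan-leukocyte gene PTPRC was not detected in either array. GGPS1, which makes geranylgeranyl pyrophosphate for prenylation, had 1252 in adapted and 955 in wild-type cells (0.17). SOAT1, which esterifies cholesterol for storage, had 177 in adapted and 169 in wild-type cells (0.14), close to the background.

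**Figure D3:**
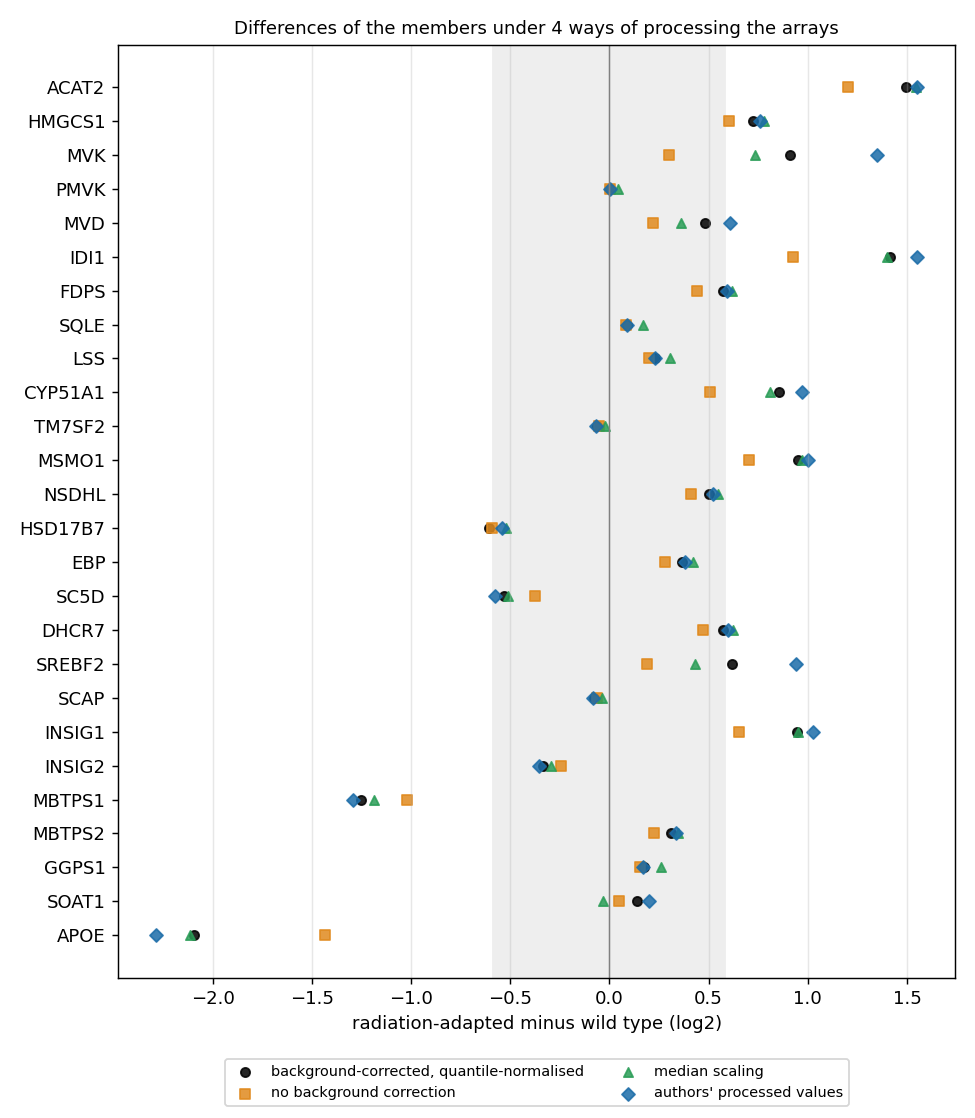
Difference of each detected member (log2, adapted minus wild type, x axis) with the background-corrected, quantile-normalised values (circles), without background correction (squares), with median scaling (triangles) and in the authors' processed values (diamonds); the grey band is under 1.5-fold. ACAT2, HMGCS1, IDI1, MSMO1 and INSIG1 lie right of the band and MBTPS1 and APOE left of it in all 4, while MVK and SREBF2 spread widely.

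Without background correction 5 members were at least 1.5-fold higher (ACAT2, HMGCS1, IDI1, MSMO1 and INSIG1) and 3 lower, where the backgrounds were 4.24% and 5.81%. In the authors' processed values 11 were higher and 2 lower, with backgrounds of 15.5% and 15.0%. Of the 11 members past 1.5-fold, 6 were past it under each of the 7 alternatives tried: ACAT2, HMGCS1, IDI1 and INSIG1 upwards, MBTPS1 and APOE downwards. HMGCS1, IDI1, INSIG1 and APOE had 1 detected probe each, detected in both arrays. For them a detection p of 0.05, no filter and the mean over probes could not change the value. For ACAT2 and MBTPS1 the detection p of 0.05 and no filter could not change it either.

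Other genes of the neighbouring pathways were read from 9 further lists, with the same backgrounds of 11.8% higher and 12.3% lower. Fatty acid synthesis, which SREBP1 controls and SREBP2 can also turn on, had 2 of 7 measured genes higher and 0 lower. The desaturase SCD had 4356 in adapted cells, against 1238 in wild-type cells (1.66), and fatty acid synthase, FASN, 3006 against 1559 in the same order (0.73), while ACLY (0.47) and MID1IP1 (0.56) were under 1.5-fold. In a list of other genes known to respond to sterol loss, 3 of 11 were higher and 0 lower. The median of that list was 0.003, with 6 genes above 0 and 5 below. Higher were SREBF1, the gene of SREBP1 (1.45), the sterol-related membrane protein TMEM97 (0.84, with a further probe of the other sign) and FASN. FASN is in both lists, as is ELOVL6 (-0.35), and FADS1 read 0.33 and RDH11 0.00.

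Of other sterol enzymes and their electron donors, 1 of 7 was higher, the cytochrome CYB5B (0.79), and 0 lower, with CYB5R3 at -0.29 and ACAT1 at 0.12. Sensing and turnover genes had 0 of 7 higher and 1 lower, the ubiquitin-conjugating enzyme UBE2G2 (-0.59), with VCP at 0.33 and AUP1 at 0.07. The list of the sterol-excess receptor LXR and its targets had 1 of 6 higher, the exporter ABCG1 (0.64, or 0.29 without background correction), and 0 lower. MYLIP and LPCAT3, 2 further LXR targets, each read -0.30.

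In uptake and intracellular transport 2 of 11 genes were higher and 1 lower. The lipoprotein receptor VLDLR had 247 in adapted cells, against 172 in wild-type cells (1.10, or 0.48 without background correction). The sterol transfer proteins GRAMD1B (0.78) and GRAMD1A (-0.90) went opposite ways, and NPC2 (-0.14) and OSBP (-0.17) were near level. None of 4 measured oxysterol and ester genes passed 1.5-fold, with NCEH1 at -0.47 and CYP27A1 at 0.08. Among users of the isoprenoid branch 2 of 13 were higher, the ubiquinone enzymes COQ2 (0.75) and PDSS2 (0.72), and 0 lower, with RABGGTB at -0.12 and ZMPSTE24 at 0.11. Of 5 prenylated small GTPases, RHOB was lower (-0.64) and 0 were higher, with RAC1 at -0.48 and RHOA at -0.07.

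**Figure D4:**
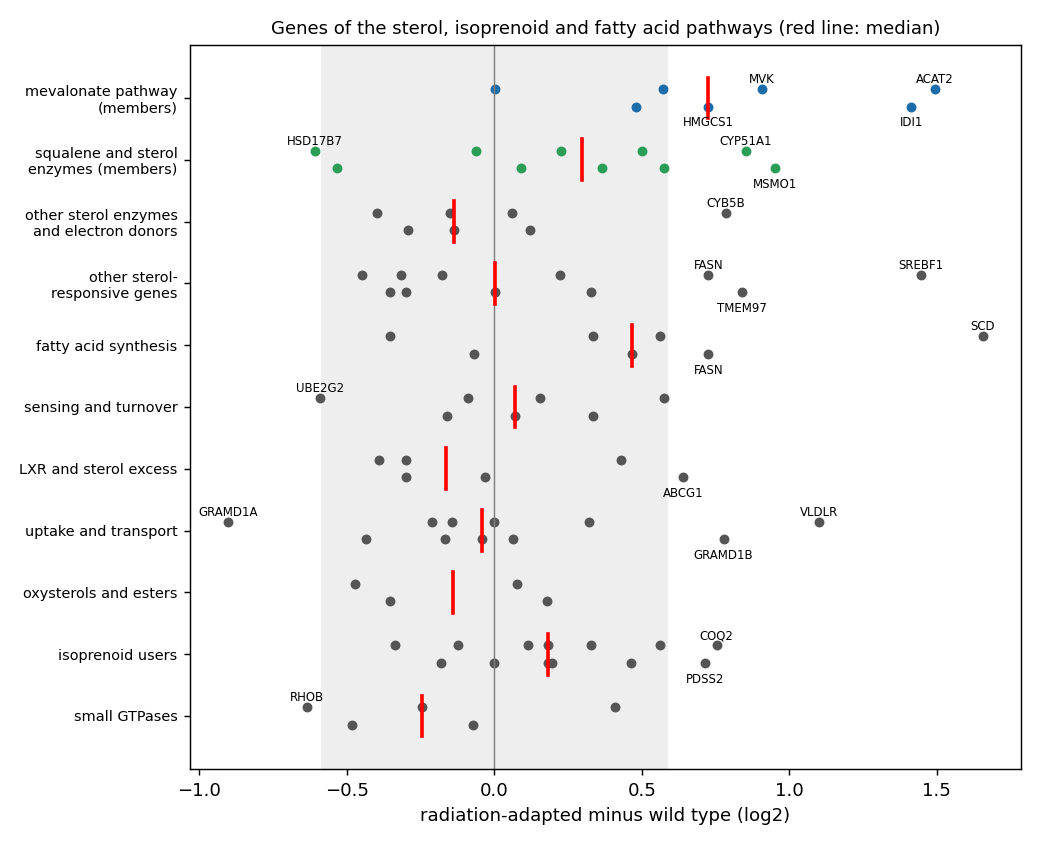
Difference between the arrays (log2, adapted minus wild type, x axis) for each measured gene of the lists on the y axis, with genes detected in 1 array at their bound, the median in red and the band under 1.5-fold in grey. The mevalonate genes have the rightmost median (0.72), and SCD (1.66) and SREBF1 (1.45) lie furthest right outside the members.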

How the data were processed

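The deposited summary table gives an intensity and a detection p-value for each probe on either array, and the intensity, per the file headers, is an average signal without normalisation. The authors' second deposited table holds processed intensity values with a median of 10.6 per array and 27.7% below 0. Its columns rank the probes as the raw intensity of the same array does. Sorted by size, the columns differ by at most 0.5, so their distributions are nearly equal, as after quantile normalisation. The authors' values are thus no check on that step. Their scale is linear, and the sources used here do not say how they were centred. Groups came from the cell line labels, and 4 Gy from a description.

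Main values used neqc of limma 3.58.1 in R 4.3.3 (background from the detection p, offset 16, quantile normalisation, log2), which equalises the 2 distributions. For the dim members MVK and SREBF2 the main differences (0.91 and 0.62) were wider than the uncorrected ones (0.30 and 0.19). Of all detected genes, 11.8% were at least 1.5-fold higher in the main values and 4.24% in the uncorrected ones. Of 47323 probes, 30113 had 1 gene symbol in the platform annotation, 8 several and 17202 none listed; 30074 matched RefSeq by gene ID. The brightest probe with a detection p of at most 0.01 in at least 1 array stood for its gene. For a gene detected in 1 array, the difference is a bound, taken against the lowest detected value of the dim array or, if higher, the dim value itself. No test was run, and the number of arrays limits the precision. The normalisation was tested on simulated arrays whose changed probes lay well above background, and the gene step on a small made-up set of values. Dim probes such as those of MVK and SREBF2 lay outside that setting.

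All 28 members are named. Genes of the 9 other lists are named when past 1.5-fold, plus up to 2 of the brightest others and ELOVL6, which is in 2 lists. Members and lists were chosen with earlier results of these data known. Alternatives were no background correction, an offset of 50, median scaling, the authors' values (floored at 16, log2), a detection p of 0.05, no filter, and the mean over probes. Python 3.11.15 with pandas 2.3.3, numpy 2.4.6 and matplotlib 3.10.9 did the rest.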

Additional observations from a re-analysis of the deposited data

How the results depend on the processing

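No paired analysis was possible because each group had 1 array. Over the 7 alternatives the median of the members stayed between 0.21 and 0.36, and of 26 members LSS (-0.35 as a mean that includes 2 probes at background in adapted cells) and SOAT1 (median scaling), both under 1.5-fold, changed sign. Background correction mattered most: without it 5 members in place of 8 were at least 1.5-fold higher, and 4.24% of all genes were higher and 5.81% lower; with an offset of 50, 7.76% of all genes were higher. FDPS and DHCR7 passed 1.5-fold with median scaling and in the authors' values, and MVD in the authors' values. The causes were not tested. In the other lists the counts moved as well, and not only through genes near 1.5-fold. Between the main and the uncorrected values VLDLR went from 1.10 to 0.48 and GRAMD1B from 0.78 to 0.33. COQ2 went from 0.75 to 0.55 and PDSS2 from 0.72 to 0.48. VLDLR and GRAMD1B were dim in wild-type cells, with intensities of 172 and 175.5. Without background correction the higher genes numbered 0 for LXR, for uptake and transport and for isoprenoid users, and the lower ones 0 for sensing and turnover and for small GTPases. An offset of 50 gave 0 higher for LXR, 1 higher for uptake and transport, and 0 lower for sensing and turnover and for small GTPases. Median scaling gave 1 higher and 0 lower for sensing and turnover, 0 higher for LXR and 3 higher for fatty acid synthesis. The authors' values gave 1 higher and 0 lower for sensing and turnover, 4 higher for isoprenoid users and 1 higher for small GTPases. A detection p of 0.05 gave 1 lower oxysterol or ester gene. With no filter there were 2 higher and 1 lower of these and 1 lower LXR gene. The mean over probes gave 2 lower small GTPases, and 2 higher in the list of other genes known to respond to sterol loss. The detection p limits MVK and SREBF2, both dim.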

Other observations

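Genes that start head to head with a member, within 1000 bases on the opposite strand, were looked up in RefSeq after the data were seen. Of 10 such partners, 4 had a named probe and were detected in at least 1 array. The others had no named probe and so were not measured. MMAB, which starts 290 bases from MVK and acts in vitamin B12 metabolism, had 249.8 in adapted cells, against 193 in wild-type cells, a difference of 0.69 (0.33 without background correction), beside at least 0.91 for MVK. CETN2, the centrin gene opposite NSDHL, had a normalised log2 value of 11.07 in both arrays, where NSDHL differed by 0.50. MCM3AP-AS1, opposite LSS, read -0.50, and SNAI3-AS1, opposite MVD, was detected in adapted cells alone, with a bound of 0.37.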
